A study of Mus musculus with 16 samples.

Results

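The genes of mitochondrial oxidative phosphorylation were examined in primary mouse mammary fibroblasts, across MEKK1 genotype and exposure to medium from breast tumor cells. The genes were chosen by symbol, as those that begin with NDUFA, NDUFB, NDUFC, NDUFS or NDUFV and a digit (complex I), as SDHA to SDHD (complex II), or as those that begin with UQCR (complex III), with COX and a digit from 4 to 8 (complex IV) or with ATP5 (complex V). This gave 75 of the 18132 genes in the deposited table, namely 33 of complex I, 3 of complex II, 6 of complex III, 17 of complex IV and 16 of complex V. Of the 75, COX4NB, ATP5SL, ATP5S and COX7A2L carry such a symbol without being named as subunits. The symbol rule reaches nuclear genes, and 0 genes encoded by mitochondrial DNA were in the table. SDHA, COX8A, NDUFA4L2, ATP5G1, NDUFA11, UQCRB and UQCR10 were not analysed here.

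Oxidative phosphorylation takes place in the inner mitochondrial membrane. Complexes I and II feed electrons from NADH and succinate to ubiquinone, complex III passes them to cytochrome c, complex IV reduces oxygen to water, and complex V (ATP synthase) uses the proton gradient built on the way to make ATP. Most subunits are nuclear genes expressed in every tissue, a few have isoforms restricted to muscle, testis or lung, and many of their promoters carry binding sequences for the activators NRF1 and GABP (an ETS factor).

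RNA was taken from fibroblasts of the inguinal mammary glands of female 129S6 mice of 8 to 10 weeks, which were MEKK1+/+ or MEKK1-/-, MEKK1 being the kinase encoded by MAP3K1. The cells were kept in DMEM with serum (untreated) or exposed for 8 h to the same medium harvested from MDA-MB231 human breast cancer cells (conditioned medium, CM). Each of the 4 groups, untreated and CM in both genotypes, has 4 arrays, and all 16 were Illumina Mouse 8 arrays. The comparisons ask which genes depend on MEKK1 and which respond to the tumor cell medium. The cultures came from fewer mice than there were arrays and the mouse behind each is not named, so the spread is between cultures and p-values measure no more than that.

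Array medians ran from 114 to 170.1 on the deposited linear scale, within-group correlations from 0.979 to 0.996, and values were quantile normalized between arrays before testing. Arrays labelled MEKK1-/- did not show less MAP3K1 (normalized log2 intensity 8.06 to 8.41 untreated and 7.79 to 8.29 with CM) than MEKK1+/+ arrays (7.51 to 7.95 and 7.42 to 8.18), and where its probe lies relative to the deleted part is not known, so genotype below is that of the label. Of 12 fibroblast markers 10 were above background on all arrays. Of 17 macrophage markers, 8 were above background on all arrays and 4 (PTPRC, ITGAM, CD163 and MSR1) on none, and the log2 of their summed level was 14.68 to 16.26 on MEKK1+/+ arrays and 13.62 to 15.99 on arrays labelled MEKK1-/-.

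Promoter sequences of 300 bases, 250 before and 50 after the start, were available from RefSeq (GRCm38.p6) for 57 of the 75 genes, as 62 promoters. The NRF1 core GCGCANGCG was found on either strand in 17 of the 62 (27.4%), against 6.25% of all 32851 promoters of this length. The ETS core CGGAAG was in 25 (40.3%), against 16.9%, and 35 (56.5%) held at least 1 of these cores, against 20.9%, with 7 holding both (11.3%, against 2.21%). These shares describe letters in the window and are no measure of binding. The NRF1 matches began between positions -241 and 31 from the start (median -35), and matches on opposite strands can overlap. The form with T in the open position, GCGCATGCG, was in 6 of the 62 (9.68%), against 1.75% of all promoters. The windows around these 6 are shown because they carry the best-known regulatory sequence of the pathway. Every NRF1 core match that lies whole within the window is in capitals. In UQCRC1 a further match, which begins at position 6 from the start, is cut by the edge of the window and left in small letters.
ATP5G2 (chr15:102671061-102671109, minus strand): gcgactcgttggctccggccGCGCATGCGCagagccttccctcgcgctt
ATP5K (chr5:108434421-108434469, minus strand): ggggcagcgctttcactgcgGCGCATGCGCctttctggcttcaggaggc
ATP5L (chr9:44920955-44920992, minus strand): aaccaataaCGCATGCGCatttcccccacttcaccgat
COX6A1 (chr5:115349092-115349140, minus strand): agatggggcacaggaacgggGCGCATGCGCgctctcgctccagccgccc
NDUFA8 (chr2:36049319-36049367, minus strand): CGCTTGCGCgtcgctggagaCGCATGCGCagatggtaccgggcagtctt
UQCRC1 (chr9:108936658-108936697, plus strand): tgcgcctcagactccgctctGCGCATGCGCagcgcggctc

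The 6 windows belong to genes of complexes I, III, IV and V. ATP5G2 encodes the membrane ring subunit c of ATP synthase, ATP5L its membrane subunit g, COX6A1 the widely expressed isoform of a complex IV subunit, NDUFA8 an accessory subunit of complex I and UQCRC1 a core protein of complex III, and each of these was above background on all 16 arrays. ATP5K, a small membrane subunit of ATP synthase, was above background on no array, at -0.64 to -0.11 log2 units from the background level. None of the 6 genes passed the threshold in any comparison.

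Background was set on each array by the 99th percentile of 1075 olfactory receptor genes, which fibroblasts are not known to express. Of the 75 oxidative phosphorylation genes 65 passed it on all 16 arrays, compared with 6926 of the 18132 genes in the table, and 8 passed it on none. Complex I had 32 of 33 genes above background throughout, the exception being NDUFS1. Complex II had 3 of 3, complex III 4 of 6, complex IV 12 of 17 and complex V 14 of 16. NDUFS1 (the large iron-sulfur subunit of complex I), UQCRFS1 (the Rieske protein of complex III) and UQCRQ, a small subunit of complex III, were above background on no array. This gives no value for their level, and whether their probes report the transcripts was not tested. ATP5S passed on 14 arrays.

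The other genes below background were mostly tissue isoforms of complex IV. COX4I1, the widely expressed isoform of subunit 4, lay 6.94 to 7.35 log2 units above the background of its array, and COX4I2, its lung isoform, lay at -0.51 to -0.01 and passed on 0 arrays. COX6A1 lay at 6.45 to 7.10 and its muscle isoform COX6A2 at 0.16 to 0.92, close to background but above it on all 16 arrays. COX6B1 lay at 6.14 to 7.07, and COX6B2, the testis isoform, at -0.20 to 0.33, above background on 6 arrays. The muscle isoform COX8B and the testis isoforms COX7B2 and COX8C were above background on none. For subunit 7A both isoforms were detected on all 16 arrays, the widely expressed COX7A2 at 1.85 to 2.51 and the heart and muscle isoform COX7A1 at 0.57 to 2.63. Of 8 skeletal muscle markers, CKM, MYH1, MYH4, PVALB and TTN were above background on no array. The others were above it on 16 arrays (ACTA1), 15 (MYLPF) and 6 (TNNT3). Each gene here is set against background, and probes of different genes are not compared in brightness.

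**Figure D1:**
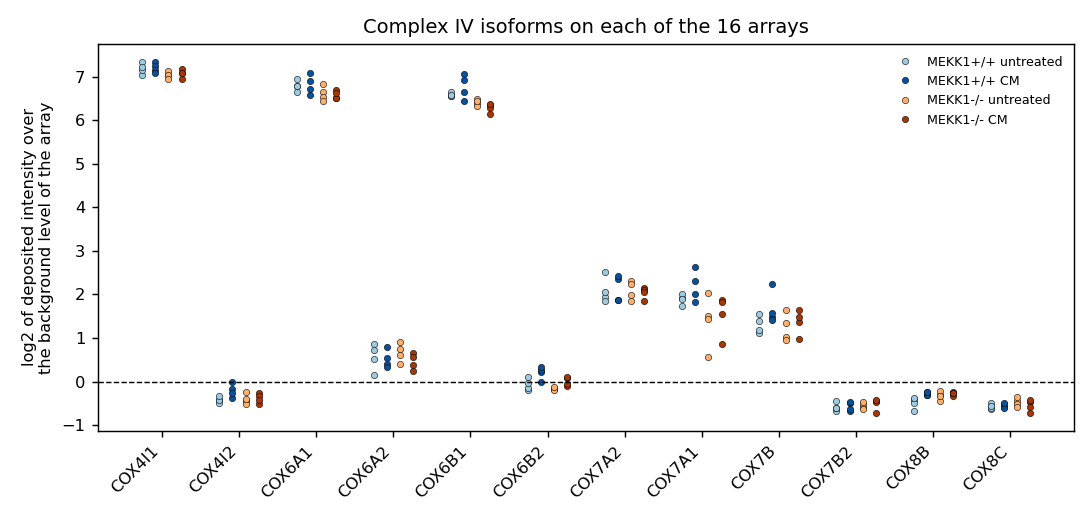
Deposited intensity of complex IV isoforms over the background level of the same array (y axis, log2, with background as the dashed line), with 1 point per array and colors for the 4 groups. COX4I1, COX6A1 and COX6B1 lie at least 6.14 above background on every array, while COX4I2, COX7B2, COX8B and COX8C stay below it.

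Exposure of MEKK1+/+ fibroblasts to CM left 74 of the 75 oxidative phosphorylation genes short of the threshold. The gene that passed, COX4NB, fell, and across all genes 909 (5.01%) passed. COX4NB (current symbol Emc8) is a subunit of the endoplasmic reticulum membrane complex, which inserts proteins into that membrane, and takes its old symbol from lying next to Cox4i1 in the GRCm38.p6 gene table. Thus 0 of the 71 named subunits of complexes I to V passed in this comparison (limma, adjusted p under 0.05). At an unadjusted p under 0.05 there were 14 of the 75 (16.8% of all genes), and a test on z-scores of the arrays called 2 (10.6% of all genes), COX4NB and COX8B, the latter above background on no array. The median log2 difference was 0.05 over the 75 genes, with 46 higher and 29 lower, and -0.00 over all genes. With values as deposited, which move the median of all genes by -0.28, the split was 4 higher and 71 lower, and with arrays scaled to the same median it was 37 and 38, and on z-scores 54 and 21.

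COX4NB had normalized log2 intensities of 9.76, 9.82, 9.69 and 9.64 on the untreated MEKK1+/+ arrays and of 9.10, 9.28, 8.91 and 8.70 with CM. All 4 exposed arrays were below all 4 untreated ones, a difference of -0.73 (SE 0.13, limma, adjusted p = 0.00394, exact permutation p = 0.0286, the smallest that 4 against 4 can give). Groups failed to overlap for 5 of the 75 genes, against 9.7% of all genes. In cells labelled MEKK1-/- the values were 10.12, 9.67, 9.84 and 9.80 untreated and 9.66, 9.17, 9.24 and 9.37 with CM, which again left the exposed arrays below the untreated ones, by -0.50 (SE 0.13, limma, adjusted p = 0.0363, exact permutation p = 0.0286). In these bulk cultures, less RNA per cell and fewer cells with the transcript cannot be told apart. Beside it, COX4I1 was 14.22, 14.48, 14.32 and 14.43 untreated against 14.48, 14.27, 14.35 and 14.30 with CM in MEKK1+/+ cells, and its difference was -0.01 (95% interval -0.17 to 0.14). In MEKK1-/- cells it was 14.46, 14.36, 14.43 and 14.24 against 14.32, 14.55, 14.49 and 14.50, a difference of 0.09 (-0.06 to 0.25). COX4NB less COX4I1 ran from -4.78 to -4.46 untreated and from -5.60 to -5.00 with CM in MEKK1+/+ cells, without overlap. In MEKK1-/- cells it ran from -4.69 to -4.34 and from -5.38 to -4.66, where untreated replicate 2 lay just below CM replicate 1. This difference was formed after its values were seen and is given without a test. A level of that difference has no meaning across probes, and its change between groups does.

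**Figure D2:**
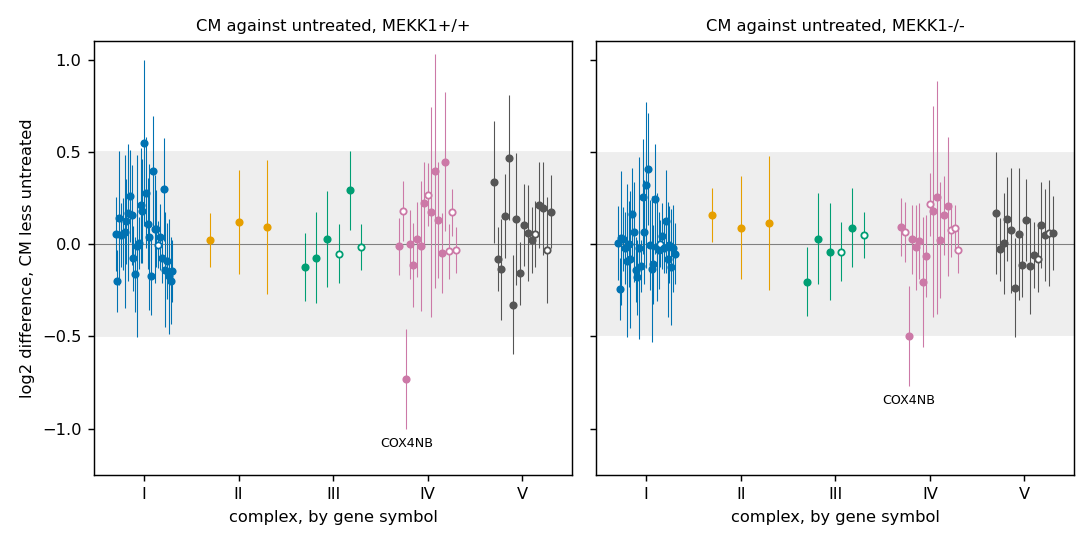
Log2 difference of each of the 75 genes, CM less untreated (y axis), by complex (x axis) in MEKK1+/+ (left) and MEKK1-/- cells (right), with 95% intervals. Filled points were above background on all 16 arrays and the grey band holds 90% of all genes above background by absolute difference. COX4NB, labelled, is the point past the threshold in each panel, at -0.73 and -0.50.

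In MEKK1-/- fibroblasts exposed to CM, COX4NB was again the gene past the threshold, 1 of 75 where 851 of all genes (4.69%) passed, and again 0 named subunits did. At an unadjusted p under 0.05 there were 6 of the 75 (16.2% of all genes), and groups failed to overlap for 8 (10.4% of all genes), among them SDHB and NDUFB5. Same-numbered arrays correlated at 0.22 to 0.51 in this genotype, and at -0.04 to 0.58 in MEKK1+/+ cells. With the replicate number as a block in the 8 MEKK1-/- arrays 2 of the 75 were called, where 8.39% of all genes were. These were COX4NB (-0.49, adjusted p = 0.00416, limma) and NDUFB5 (0.40, adjusted p = 0.0354). The same block in the MEKK1+/+ arrays called 1 of the 75, COX4NB, where 5.15% of all genes were, and NDUFB5 had an adjusted p of 0.0733 (limma). The COX4NB call was lost with an adjusted p of 0.0746 to 0.119 (limma) when untreated replicate 1, 3 or 4 or CM replicate 2, 3 or 4 was left out, with arrays scaled to the same median (0.0926), with only the 8 arrays fitted (0.0569) and as deposited (0.819). The median difference of the 75 genes was 0.02, with 42 higher and 33 lower, and 27 higher and 48 lower both as deposited and with arrays scaled to the same median, and 48 and 27 on z-scores.

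The response to CM averaged over both genotypes used all 16 arrays. In that average 5 of the 75 genes passed, against 12.5% of all genes, and 19 of the 75 had an unadjusted p under 0.05 (23.1% of all genes). Of the 5 there were 3 higher (6.03% of all genes higher) and 2 lower (6.44%). NDUFA10, NDUFB5 and NDUFB9 are accessory subunits of complex I, COX6B2 is the testis isoform near background and COX4NB is not a subunit. COX4NB fell by 0.62 (SE 0.09, limma, adjusted p = 0.000334, stratified exact permutation p = 0.000408, the smallest of 4900 rearrangements). Differences were small over the list. For 61 of the 65 genes above background on all arrays the 95% interval of the difference lay within a 1.5-fold change either way. The share of all genes with such an interval was not counted. Among genes above background the median absolute log2 difference was 0.10 for the oxidative phosphorylation genes and 0.16 for all.

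NDUFA10, an accessory subunit of complex I, fell. Its normalized log2 intensity in MEKK1+/+ cells was 12.23, 12.54, 12.36 and 12.30 untreated and 12.37, 12.14, 12.04 and 12.07 with CM. In MEKK1-/- cells it was 12.57, 12.40, 12.51 and 12.49 untreated and 12.26, 12.31, 12.14 and 12.28 with CM. The groups overlapped in MEKK1+/+ cells through replicate 1 and did not overlap in MEKK1-/- cells. The average difference was -0.22 (SE 0.06, limma, adjusted p = 0.0152, exact permutation p = 0.00286), and it missed the threshold on z-scores (0.0731) and with a trended robust variance (0.0567). NDUFB5, an accessory subunit of the membrane arm, rose by 0.34 (SE 0.10, limma, adjusted p = 0.0337, exact permutation p = 0.00735). It went from 10.11, 10.60, 10.09 and 10.24 to 10.42, 10.91, 10.47 and 10.37 in MEKK1+/+ cells, where untreated replicate 2 lay among the exposed arrays. In MEKK1-/- cells it went from 10.10, 10.47, 10.10 and 10.42 to 10.54, 10.56, 10.71 and 10.91, with no overlap. The promoters of this pair of complex I genes, which moved in opposite directions, are shown with the ETS core in capitals (on NDUFB5 it reads on the other strand); NDUFA10 had neither core in this window.
NDUFA10 (chr1:92473709-92474008, minus strand): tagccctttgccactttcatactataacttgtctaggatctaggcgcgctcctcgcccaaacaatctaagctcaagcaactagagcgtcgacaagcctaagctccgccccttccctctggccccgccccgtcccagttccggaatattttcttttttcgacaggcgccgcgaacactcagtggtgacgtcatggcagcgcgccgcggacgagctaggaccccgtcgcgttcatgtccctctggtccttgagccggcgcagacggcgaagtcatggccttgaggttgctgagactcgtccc
NDUFB5 (chr3:32736813-32737112, plus strand): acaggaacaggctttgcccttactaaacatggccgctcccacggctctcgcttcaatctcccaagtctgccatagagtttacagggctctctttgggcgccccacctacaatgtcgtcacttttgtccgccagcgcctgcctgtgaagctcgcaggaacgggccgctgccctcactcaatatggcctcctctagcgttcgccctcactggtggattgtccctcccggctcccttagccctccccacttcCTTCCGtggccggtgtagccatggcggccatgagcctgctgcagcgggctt

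NDUFB9, another accessory subunit of the membrane arm, rose by 0.32 (SE 0.10, limma, adjusted p = 0.0469, exact permutation p = 0.0049). In MEKK1+/+ cells it was 10.07, 9.73, 9.36 and 9.80 untreated and 10.10, 10.51, 10.05 and 9.87 with CM, with overlap. In MEKK1-/- cells it was 10.35, 10.10, 10.07 and 10.28 untreated and 10.40, 10.40, 10.39 and 10.58 with CM, without overlap. The NDUFB9 call was lost without any of 13 of the 16 arrays (adjusted p 0.0572 to 0.0972, where the exceptions were untreated replicate 1 of each genotype and CM replicate 4 of MEKK1+/+ cells), and the NDUFB5 call without any of 8: untreated replicates 1, 3 and 4 and CM replicate 2 of MEKK1+/+ cells, and untreated replicates 1 and 3 and CM replicates 3 and 4 of MEKK1-/- cells (0.0524 to 0.0763). Neither passed as deposited (0.706 and 0.679), with arrays scaled to the same median (0.341 and 0.312) or on z-scores. Of 12 alternatives that kept every array, 5 lost the NDUFB9 call and 3 the NDUFB5 call. COX6B2 passed with higher values in CM (limma, adjusted p = 0.00907, exact permutation p = 0.00286), from 7.31, 7.05, 7.08 and 7.20 untreated to 7.45, 7.53, 7.19 and 7.54 with CM in MEKK1+/+ cells and from 7.09, 7.08, 7.08 and 7.11 to 7.17, 7.28, 7.38 and 7.40 in MEKK1-/- cells. On untreated arrays it passed background on 1 of 4 in MEKK1+/+ cells and 0 of 4 in MEKK1-/- cells, and on exposed arrays on 3 and 2 of 4, so its size is not given. As deposited its adjusted p was 0.558.

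**Figure D3:**
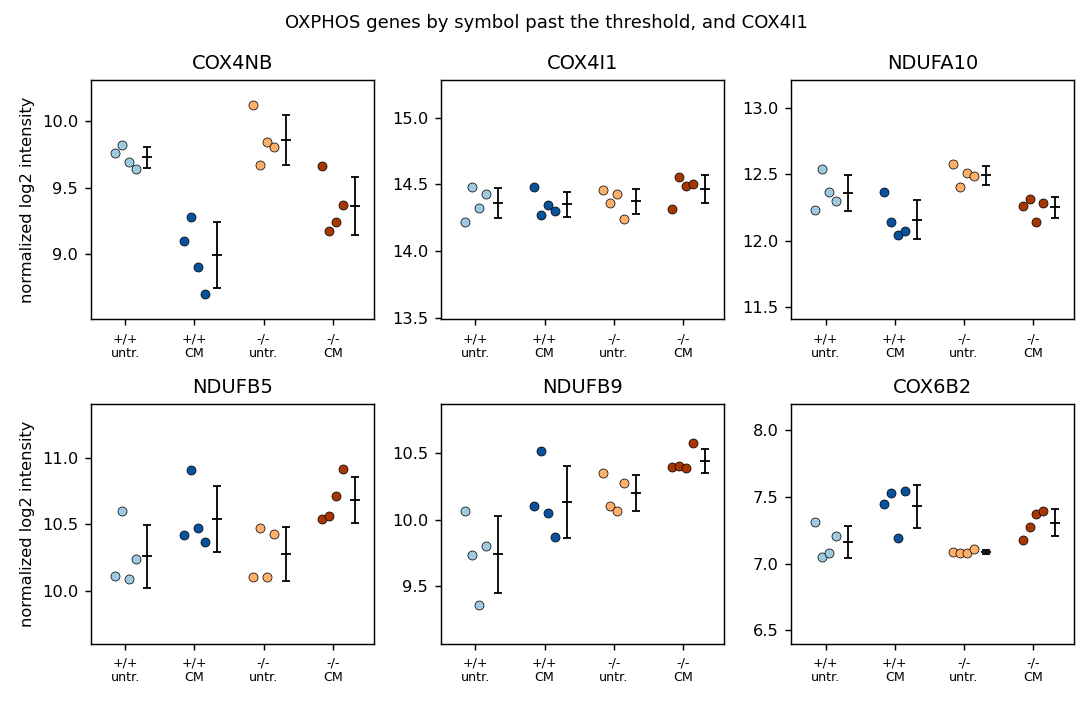
Normalized log2 intensity (y axis, every panel spanning the same range) of the 5 genes past the threshold in the averaged CM comparison and of COX4I1, with 1 point per array by genotype and treatment, and beside each group its mean and SD. COX4NB lies lower with CM in both genotypes while COX4I1 does not separate.

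Among genes above background and short of the threshold, those with the largest differences with CM within their complex are given next. In complex I, NDUFB4, a membrane arm subunit, was 8.21 to 8.90 untreated and 8.64 to 9.53 with CM in MEKK1+/+ cells, a difference of 0.55 (SE 0.21, limma, adjusted p = 0.176), and 0.32 in MEKK1-/- cells. In complex V, ATP5E, the epsilon subunit of the ATP synthase stalk, was 8.66, 8.70, 8.75 and 9.06 untreated and 9.18, 9.67, 9.12 and 9.08 with CM in MEKK1+/+ cells, which did not overlap (0.47, SE 0.16, adjusted p = 0.115), and differed by 0.08 (SE 0.16) in MEKK1-/- cells. In complex IV, COX7B, a small membrane subunit named after its values were seen, was 8.51, 8.51, 8.24 and 8.46 untreated and 8.71, 9.52, 8.62 and 8.67 with CM in MEKK1+/+ cells, which did not overlap (0.45, SE 0.18, adjusted p = 0.193), and differed by 0.20 (SE 0.18) in MEKK1-/- cells. Of complex V, ATP5F1, subunit b of the peripheral stalk, averaged -0.28 (SE 0.09, adjusted p = 0.0507) over both genotypes. In complex III, UQCRH, the hinge protein, averaged 0.19 (SE 0.07, adjusted p = 0.103) and UQCR (Uqcr11) -0.16 (SE 0.06, adjusted p = 0.108). Succinate dehydrogenase, the enzyme shared with the citric acid cycle, did not pass in any comparison: SDHB, its iron-sulfur subunit, averaged 0.09 (95% interval -0.01 to 0.19), and the membrane anchors SDHC and SDHD 0.11 (-0.09 to 0.30) and 0.10 (-0.15 to 0.36).

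The ring subunit isoforms of ATP synthase and the other isoform pairs did not pass either. ATP5G2 averaged 0.10 (SE 0.12) with CM and ATP5G3 -0.14 (SE 0.06, limma, adjusted p = 0.158). COX6A1 averaged 0.02 (SE 0.07) and COX6A2 -0.11 (SE 0.12), COX7A2 0.08 (SE 0.10) and COX7A1 0.33 (SE 0.21). NDUFA4, a subunit first assigned to complex I and now placed in complex IV, averaged 0.06 (SE 0.08).

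Between genotypes, 0 of the 75 genes passed in untreated cells, where 0 of all genes (0%) did. With CM 0 of the 75 passed and 1 of all genes (0.00552%) did, and averaged over both treatments 0 and 2 (0.011%). At an unadjusted p under 0.05 the counts were 7 of 75 untreated (9.27% of all genes), 13 with CM (8.09%) and 17 in the average (15.5%), and the test on z-scores called 3, 4 and 8 (4.51%, 2.54% and 5.15% of all genes). Groups failed to overlap for 4 genes untreated (4.61% of all genes) and 7 with CM (4.17%). Of the 65 genes above background on all arrays, the 95% interval lay within a 1.5-fold change either way for 54 untreated, 56 with CM and 62 in the average.

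The direction of the list between genotypes turned with the scaling of the arrays. On quantile normalized values 54 of the 75 genes were higher and 21 lower on untreated arrays labelled MEKK1-/- (median 0.08, against 0.01 for all genes), and 49 and 26 with CM (median 0.04, against 0.00). With arrays scaled to the same median the splits were 15 and 60 (median -0.14) and 13 and 62 (median -0.16). On z-scores they were 65 and 10 (median 0.16) and 57 and 18 (median 0.10). As deposited they were 16 and 59 untreated and 62 and 13 with CM, where the median of all genes itself moved by 0.28. Across the table, 614 genes were brighter on average than the median oxidative phosphorylation gene above background. In the averaged genotype comparison their median was 0.02 on quantile normalized values, -0.22 after median scaling, 0.16 on z-scores and -0.06 as deposited. For the 75 genes it was 0.07, -0.15, 0.13 and 0.02, so the signs differed as deposited. The part of brightness in the turn was not tested. After median scaling 8 of the 75 passed in the averaged comparison, all of them lower, where 6.39% of all genes passed in either direction. They were ATP5E, ATP5SL, COX6B1, NDUFA1, NDUFA13, NDUFA6, NDUFA9 and UQCRC2.

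**Figure D4:**
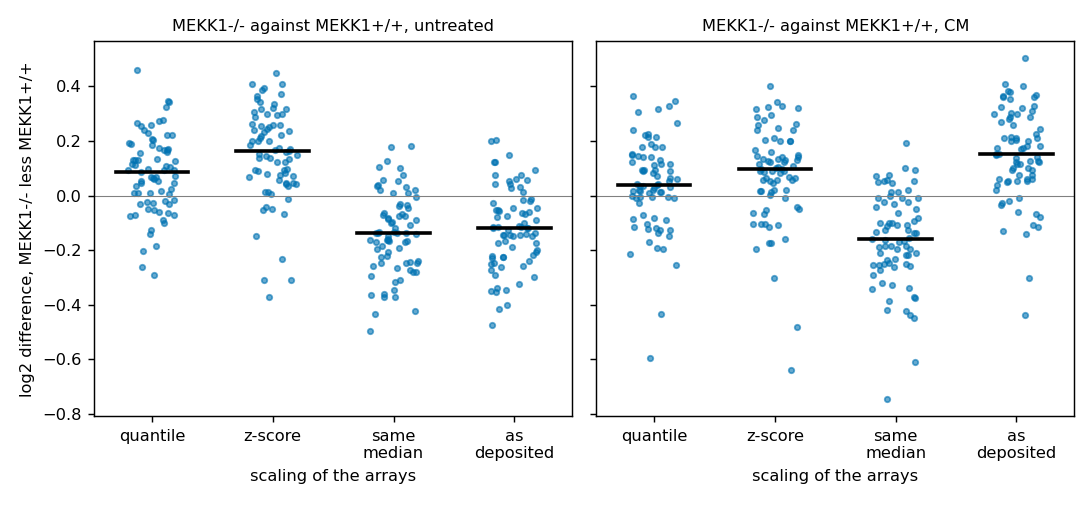
Log2 difference of the 75 genes, MEKK1-/- less MEKK1+/+ (y axis), under 4 scalings of the arrays (x axis), in untreated cells (left) and with CM (right). Each point is a gene and the bar is the median. The median is 0.08 untreated after quantile normalization and -0.14 after scaling to the same median.

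In both treatments and under all 4 scalings 7 of the 75 genes were higher on arrays labelled MEKK1-/- and 4 lower, where 20.9% and 7.53% of all genes were. Of the 65 above background on all arrays 3 were higher and 4 lower, where 8.87% and 17% of all genes above background were. Of the 7 higher, COX8B, COX8C, NDUFS1 and UQCRFS1 were above background on no array, NDUFB11 lay 0.01 to 0.32 log2 units above it, and NDUFB9 and ATP5G2 are described below. The lower ones, ATP5E, ATP5SL, COX7A1 and UQCRC2, were above background on all 16 arrays, and of these ATP5SL is not a subunit. ATP5E was 8.93, 8.56, 8.32 and 8.56 untreated and 8.95, 8.77, 8.35 and 8.60 with CM on arrays labelled MEKK1-/-. Its difference from the MEKK1+/+ arrays, whose values are given above, was -0.20 (SE 0.16) untreated and -0.60 (SE 0.16) with CM, and the exposed groups did not overlap (limma, adjusted p = 0.427, exact permutation p = 0.0286). Averaged over both treatments it was -0.40 (adjusted p = 0.132), and -0.59 (adjusted p = 0.00729) after median scaling. COX7A1 spread most widely of the genes above background (within-group SD 0.466), from 8.82 to 9.14 and 8.84 to 9.88 in MEKK1+/+ cells and from 7.97 to 9.23 and 8.15 to 9.55 in MEKK1-/- cells, and its averaged difference of -0.36 (SE 0.21, adjusted p = 0.424) was within that spread. UQCRC2, a core protein of complex III, averaged -0.16 (SE 0.09, adjusted p = 0.386).

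Toward higher values, NDUFB9 had the largest averaged difference, 0.38 (SE 0.10, limma, adjusted p = 0.121), and was higher under all 4 scalings in both treatments, as was ATP5G2 (0.31, SE 0.12, adjusted p = 0.236). NDUFV1, the NADH-binding flavoprotein subunit of complex I, averaged 0.26 (SE 0.08, adjusted p = 0.147). NDUFC2, a membrane arm subunit named after its values were seen, was 12.32, 12.71, 12.70 and 12.61 untreated and 12.64, 12.77, 12.56 and 12.71 with CM in MEKK1+/+ cells. On arrays labelled MEKK1-/- it was 13.17, 12.86, 12.95 and 12.72 and 12.99, 12.90, 12.82 and 12.86. In each treatment all 4 of these were above all 4 MEKK1+/+ arrays, with an averaged difference of 0.28 (SE 0.07, adjusted p = 0.112, exact permutation p = 0.000408) that became 0.02 after median scaling. Markers of other cells are given beside these values. The median of the 17 macrophage markers was -0.82 untreated and -0.84 with CM, and the median of 9 epithelial markers 0.49 and 0.40, with 0 of them past the threshold. On MEKK1+/+ arrays the log2 of the summed epithelial level was 10.35 to 10.46 untreated and 10.24 to 10.38 with CM. On arrays labelled MEKK1-/- it was 10.42 to 13.50 and 10.40 to 13.35. The part of such cells in the genotype values was not tested.

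The interaction, which asks if the response to CM depends on genotype, passed for 0 of the 75 genes and for 0 of all genes (0%). At an unadjusted p under 0.05 it was 0 of the 75 and 473 of all genes (2.61%), and the test on z-scores called 0 of the 75. ATP5E had the largest interaction of complex V, -0.39 (95% interval -0.87 to 0.09), COX6B1 of complex IV, -0.28 (-0.60 to 0.03), NDUFA5 of complex I, -0.25 (-0.78 to 0.27), and UQCRH of complex III, -0.20 (-0.51 to 0.10). For COX4NB it was 0.23 (-0.15 to 0.62). The interval lay within a 1.5-fold difference for 50 of the 65 genes above background on all arrays. For the rest of the 65 a difference of that size between genotypes lies inside the interval. The median interaction was -0.05, with 30 above 0 and 45 below. As deposited, where all genes moved by 0.29, it was 74 and 1.

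The genes of the complexes varied together within groups. After the group means were removed, the median correlation over pairs of the 65 genes above background was 0.276, against 0.0247 for pairs of 1 such gene with another gene above background. Within complex I it was 0.389, within complex IV 0.268 and within complex V 0.0326, and over the 6 pairs of complex III -0.196. These points share array and scaling, and with 4 arrays a group they describe the arrays as much as the genes. The spread within groups was close to that of other genes, with a median SD of 0.173 for the 65 and 0.192 for the other 6861. Array by array, the median deviation of the 65 genes from the 16-array mean ran from -0.12 to 0.07 in untreated MEKK1+/+ cells, -0.16 to 0.23 with CM, 0.01 to 0.10 in untreated MEKK1-/- cells and -0.02 to 0.11 with CM. The highest value, 0.23, was MEKK1+/+ CM replicate 2, and all 4 groups overlapped. Without that array NDUFB9 passed between genotypes in the average of both treatments, 1 of 75 where 0.552% of all genes passed.

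**Figure D5:**
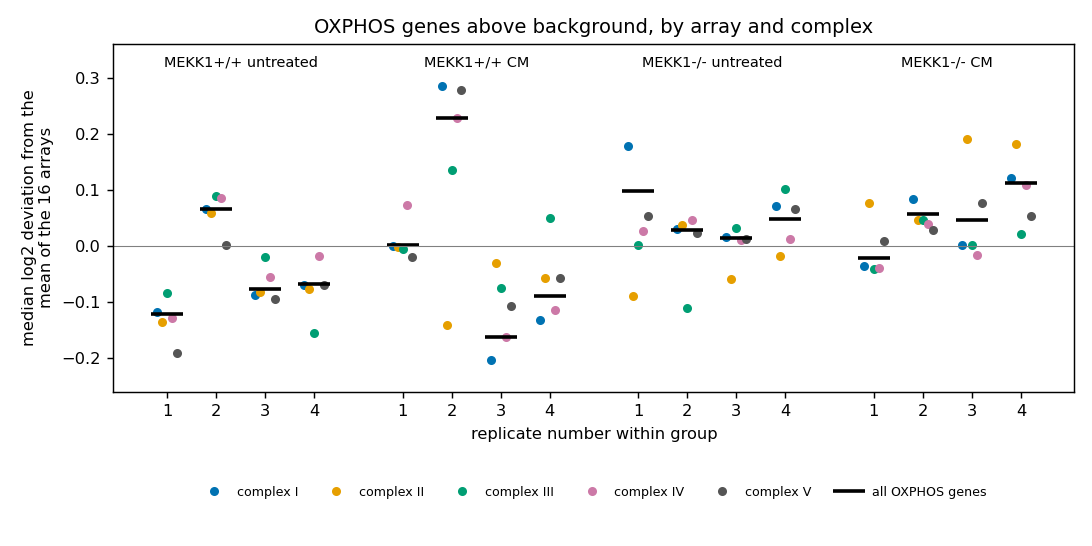
Median deviation of the oxidative phosphorylation genes above background from their mean over the 16 arrays (y axis, log2), for each array (x axis) and complex (colors), with the median over all 65 genes as a bar. The 4 groups overlap, and MEKK1+/+ CM replicate 2 is highest at 0.23.

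Genes that assemble, supply or regulate the complexes were listed separately, and 50 of the 72 listed were in the table, with 36 above background on all arrays. In the averaged CM comparison the number past the threshold was 10 of the 50 (12.5% of all genes), 4 higher (6.03% of all genes) and 6 lower (6.44%). Among 20 assembly factors 1 was higher and 5 lower, to be read against the same shares. TMEM70, which helps assemble ATP synthase, fell by 0.49 (SE 0.08, limma, adjusted p = 0.000764), by 0.56 in MEKK1+/+ cells (adjusted p = 0.009) and 0.41 in MEKK1-/- cells (adjusted p = 0.0477). COX10, which makes the heme A of complex IV, fell by 0.48 (adjusted p = 0.00738), ECSIT, a complex I assembly factor that also acts in Toll signaling, by 0.41 (0.0285), COX15, also of heme A synthesis, by 0.18 (0.0184) and COX19, a copper delivery factor, by 0.22 (0.0276). COX18, a membrane insertase for complex IV, rose by 0.25 (adjusted p = 0.0134).

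Among 11 subunits and carriers that the symbol rule leaves out, USMG5, a small subunit of ATP synthase, rose by 0.54 (SE 0.13, limma, adjusted p = 0.0127) and SLC25A3, the mitochondrial phosphate carrier, fell by 0.27 (adjusted p = 0.0227), and by 0.39 in MEKK1+/+ cells (adjusted p = 0.0417). Its difference in MEKK1-/- cells was -0.15 (adjusted p = 0.559), and the interaction was 0.24 (adjusted p = 1.00). Of 16 regulators, ESRRA, the orphan nuclear receptor that drives these genes with PGC-1 coactivators, rose by 0.30 (adjusted p = 0.0132) and POLG2, a subunit of the mitochondrial DNA polymerase, by 0.28 (adjusted p = 0.0105; above background on 13 arrays). PPARGC1A, the coactivator PGC-1 alpha, was above background on no array, and of 3 uncoupling proteins 0 were on all arrays. Between genotypes 0 of the 50 passed untreated, with CM and in the average (0%, 0.00552% and 0.011% of all genes). In the interaction it was also 0 of the 50 (0% of all genes).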

How the data were processed

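Expression was measured on 16 Illumina Mouse 8 arrays, 4 per group, with groups and replicate numbers taken from the labels. The authors deposited linear intensity values, 1 per gene and array, which the labels call normalized. The study's methods name a z-score normalization for the array data. The deposited values are on a linear scale and above 0, so they are not those z-scores, and what was done to them, to background and to probes is not given in the sources used here. The deposited intensity values were turned to log2 and quantile normalized between arrays. A single limma model (version 3.58.1, R 4.3.3, lmFit with eBayes) held all 16 arrays and left 12 residual degrees of freedom, with Benjamini-Hochberg adjustment over all 18132 genes and a threshold of 0.05. The 7 comparisons were genotype and conditioned medium (CM) within each level of the other, their interaction and both averages. For single genes a 2-sided exact permutation test over arrays was added, kept within genotype or treatment for averages.

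The members and lists were chosen with earlier results of these data known. Genes named are those past the threshold, the largest difference above background of each complex in each comparison, isoform pairs and complex II, and, of the other pathway genes, those past the threshold. Current symbols came from the GRCm38.p6 table, 70 by symbol and 5 by older symbol. Promoters were searched with Python 3.11.15. Steps were tested on simulated data, with each gene drawn independently. Of 100 genes changed by 0.5 log2 units with CM, 36% passed in the MEKK1+/+ comparison and 68% in the average. For a change of 1 unit these were 82% and 92%. A gene short of the threshold may therefore still differ. The number of arrays limits the precision. Replicate numbers were checked as pairs, across genes, from how arrays with 1 number correlated once group means were taken out. These correlations were 0.51, 0.40, 0.22 and 0.25 in MEKK1-/- cells and -0.04, 0.48, 0.12 and 0.58 in MEKK1+/+ cells. No correlation of differently numbered arrays is given beside them, and the labels do not say what a number marks. The main fit and the permutation tests used no pairing. Replicate number entered only as a block among the alternatives. Alternatives were leaving out each array, named subunits only, replicate blocks, array weights, a trended robust variance, fitting only the groups compared, genes above background only, a pseudocount of 16, averaging a gene's repeated values, z-scores (with a z-test on them), deposited values without further scaling, and arrays brought to 1 median. The block within a genotype was added after the data were seen. Arrays of MDA-MB231 cells were not analysed here.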

Additional observations from a re-analysis of the deposited data

Results flagged for a closer look

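Within a group of 4 arrays, 3 of 116 groups tested (28 named genes and the median deviation) had an array far from the other 3, judged by its gap over the group's range; chance gives about 1 in 20 groups. ATP5F1 was lowest on MEKK1-/- CM replicate 3, at a normalized log2 intensity of 11.51 where the others were 11.65 to 11.67. NDUFB9 was highest on MEKK1-/- CM replicate 4, at 10.58 where the others were 10.39 to 10.40. SDHC was lowest on MEKK1+/+ untreated replicate 1, at 10.65 where the others were 11.26 to 11.35.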

How the results depend on the processing

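Of 353 counts and single-gene values under alternatives 280 kept within 1.5 times or kept their call, 41 lost the call, 32 counts moved and 0 called values reversed. Of 163 medians of the list, which carry no test, 15 turned sign, 6 of them by more than the spread between replicates. The other 9 ended between -0.02 and 0.01, namely CM in each genotype and in the average as deposited and with arrays scaled to the same median, CM in MEKK1+/+ cells and the interaction without MEKK1+/+ CM replicate 2, and genotype with CM without MEKK1+/+ CM replicate 3. As deposited, the median of the 75 genes less that of all genes was -0.12 untreated, -0.13 with CM and -0.13 averaged between genotypes (0.08, 0.03 and 0.06 after quantile normalization), and CM called 3 genes in MEKK1+/+ cells (4.38% of all genes), 0 in MEKK1-/- cells (0.248%) and 3 in the average (5.52%). After scaling to the same median these were -0.12, -0.13 and -0.13, 3 (4.86%) and 0 (2.55%), and 8 were called in the averaged genotype comparison (6.39%). On z-scores the CM average called 2 (12.1%). The z-test called 3 genes untreated (4.51%), 4 with CM (2.54%) and 8 averaged (5.15%) between genotypes, and 2 (10.6%) and 4 (11.3%) for CM in MEKK1+/+ and MEKK1-/- cells. With only the groups compared CM called 0 in MEKK1-/- cells (4.62%), and with array weights 2 in each genotype (6.91% and 7.47%) and 2 (1.27%) in the averaged genotype comparison. Named subunits alone gave 0 and 0 for CM in each genotype. The cause was not tested, except that naming subunits leaves out COX4NB.

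A replicate block over all groups left the CM counts within 1.5 times of those without it. A random replicate block within genotype called 2 in MEKK1+/+ cells (6.49%). A block in the arrays of MEKK1-/- cells called 2 (8.39%), and a block in those of MEKK1+/+ cells called 1 (5.15%). Blocking changed no other count by over 1.5 times. Leaving out each array in turn gave 1 to 3 genes for CM in MEKK1+/+ cells (2 without untreated replicate 1, 3 without CM replicate 3), 0 to 1 in MEKK1-/- cells (0 without untreated replicates 1, 3 and 4 or CM replicates 2, 3 and 4), 3 to 7 in the average (3 without MEKK1+/+ untreated replicate 3 or MEKK1-/- CM replicate 3 or 4) and 0 to 1 between genotypes in the average (0.552% of all genes where 1). Except for the last, these leave-out counts have no share of all genes beside them and are not read as a result about these genes. A z-test gives no list median, and using only the groups compared changes nothing in averages and the interaction, so neither was run for those. COX4NB in MEKK1+/+ cells and in the average kept its call in every setting.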
